A study of Mus musculus with 18 samples.

Results

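The messenger RNA of the right atrium (RA) was compared with that of the left atrium (LA) in wild-type mice, which the labels call WT. Libraries were chosen by the column names of the deposited count table, which holds 18 columns from WT, Het and KO mice for Zfhx3, a gene for a zinc finger homeobox transcription factor. The WT columns are 3 LA and 3 RA, but 2 of the RA columns, replicates 1 and 2, hold identical counts in every gene and were kept once. The comparison therefore rests on 5 of 17 distinct libraries, 3 LA and 2 RA, and which of the animals the repeated RA column belongs to is unknown. The WT mice carry no mutant Zfhx3 label, no treatment is named, and strain, age and sex are not given. All 5 libraries had the Y-linked Ddx3y at 109 to 176 CPM (counts scaled to library size) and Xist at 0.812 to 1.1 CPM. RNA came from the whole tissue of each atrium, so that fewer cells of a type and less RNA per cell cannot be told apart. The labels do not name the altered Zfhx3 allele, nor a promoter or Cre that would limit it to some cells. Het and KO libraries enter the WT fit through the spread they lend to the test, the filter on low counts and the scaling. They are in neither group of the contrast, and they return at the end as other animals.

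The 5 WT libraries hold 18000583 to 30329736 counts. WT LA replicate 3 is the shallowest and stands apart in its non-muscle genes. Its mean log2 level over 20 macrophage markers was 1.51, against 3.51 and 3.50 in the other LA libraries and 4.15 and 3.59 in RA, and over 19 fibroblast markers it was 5.16 against 6.14 and 6.35 in LA and 5.55 and 5.44 in RA. Genes encoded in the mitochondrion took 24.1 to 26.7% of counts in LA and 19.7 to 21.6% in RA. Atrial muscle genes were abundant on both sides: per length of exon, Myl7, the atrial regulatory light chain, ranked 9 among 18018 tested genes in LA and 9 in RA, and Nppa, which encodes atrial natriuretic peptide, ranked 10 and 10. Of 11 lung epithelial markers, 2 were tested and neither was called. The same held for 2 of 11 thymus and thyroid markers.

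The atria are built from mirror-image primordia that take on side-specific programmes. An embryonic left-right pathway sets these programmes, and the pacemaker of the heart, the sinus node, forms on the right under SHOX2, TBX3, TBX18 and ISL1. BMP10 is a ligand of the bone morphogenetic protein (BMP) family that the adult heart makes mainly in right atrial myocytes. It signals through endothelial receptors of the ALK1 type, the co-receptor endoglin and BMPR2 to SMAD1, SMAD5 and SMAD9, which switch on the ID genes and the inhibitory SMAD6 and SMAD7.

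The sequences before the start sites of 5 genes are shown because their transcripts were higher in RA and belong to this pathway: the ligand, the iron hormone hepcidin in its 2 mouse copies, whose promoter is a classical target of BMP and SMAD signalling, and 2 SMAD genes. Each window is 300 bases long, with 250 bases before the annotated start site and 50 from it on, and comes from RefSeq on GRCm38.p6. Of 17 genes looked up, 13 had a window, and the 5 shown are a choice among them. Bmp10 lies at chr6:87428744-87429043 on the plus strand, Hamp at chr7:30943980-30944279 on the minus strand, Hamp2 at chr7:30924132-30924431 on the minus strand, Smad9 at chr3:54755332-54755631 on the plus strand and Smad6 at chr9:64022010-64022309 on the minus strand. Capitals mark GGCGCC, a GC-rich element bound by BMP SMADs, or GTCTAGAC, the palindrome bound by SMADs. Both were searched on both strands, which read the same for each. The motifs share no bases with each other in these windows.
Bmp10: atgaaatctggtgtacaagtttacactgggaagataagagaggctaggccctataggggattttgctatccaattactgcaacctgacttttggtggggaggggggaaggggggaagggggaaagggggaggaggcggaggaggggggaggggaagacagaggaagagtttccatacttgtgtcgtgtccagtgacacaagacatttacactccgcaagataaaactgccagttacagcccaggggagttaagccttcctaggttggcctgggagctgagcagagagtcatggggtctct
Hamp: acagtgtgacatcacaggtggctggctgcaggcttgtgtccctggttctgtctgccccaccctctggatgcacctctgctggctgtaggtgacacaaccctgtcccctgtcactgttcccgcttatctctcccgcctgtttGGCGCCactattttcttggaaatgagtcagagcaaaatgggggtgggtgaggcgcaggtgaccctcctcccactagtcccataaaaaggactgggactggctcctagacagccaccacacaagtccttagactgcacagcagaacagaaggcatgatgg
Hamp2: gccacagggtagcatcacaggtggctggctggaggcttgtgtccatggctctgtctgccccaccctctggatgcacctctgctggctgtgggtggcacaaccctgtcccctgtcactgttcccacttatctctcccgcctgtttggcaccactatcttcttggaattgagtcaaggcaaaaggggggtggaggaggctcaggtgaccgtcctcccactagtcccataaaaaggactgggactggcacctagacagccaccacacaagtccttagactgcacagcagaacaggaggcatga
Smad9: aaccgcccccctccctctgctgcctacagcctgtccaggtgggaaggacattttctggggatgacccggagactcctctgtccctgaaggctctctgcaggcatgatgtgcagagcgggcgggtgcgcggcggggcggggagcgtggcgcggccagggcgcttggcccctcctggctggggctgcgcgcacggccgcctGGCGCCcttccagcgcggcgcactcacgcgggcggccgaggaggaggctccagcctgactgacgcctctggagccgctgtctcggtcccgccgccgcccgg
Smad6: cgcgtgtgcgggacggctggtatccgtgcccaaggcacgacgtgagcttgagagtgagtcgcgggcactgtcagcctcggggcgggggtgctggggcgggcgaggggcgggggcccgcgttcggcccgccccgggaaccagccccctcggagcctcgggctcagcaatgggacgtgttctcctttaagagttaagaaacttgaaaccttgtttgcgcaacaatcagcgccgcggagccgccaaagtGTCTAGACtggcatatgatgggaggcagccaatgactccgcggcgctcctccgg

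The Hamp window holds GGCGCC 109 bases before the start site and that of Smad9 51 bases before it, while Smad6 holds GTCTAGAC 4 bases before its start. In Hamp2 the aligned bases are GGCACC, with the substitution G4A counted from 1 at the 5′ end of the motif. GGCGCC was found in 11.9% of all 32851 RefSeq windows, counted singly. By gene, it stood in any window of 23.0% of the 12077 tested genes with a window. For genes higher in RA the share was 23.9% of 703 genes, and for genes higher in LA 20.5% of 865 genes. A gene can have several windows, so the share of windows and the shares of genes are not on the same scale. GTCTAGAC stood in 0.213% of all windows. The Bmp10 window holds neither motif, nor do those of Acvr1, Bmp5, Eng and Id3, which were also higher in RA and are not shown. GGCGCC stood in 5 of 11 genes of the BMP and TGF-beta list below that were higher in RA and had a window. That share was not tested. These matches describe letters in a window.

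In WT mice the 2 atria differed in 2139 of 18018 tested genes (11.9%), with 957 higher in RA (5.31%) and 1182 higher in LA (6.56%). A gene counts as called when its edgeR adjusted p, by the quasi-likelihood F test with Benjamini-Hochberg adjustment over all tested genes, is under 0.05. Of the calls, 656 exceeded 2-fold, 380 of them higher in RA and 276 higher in LA, and at an unadjusted p under 0.05 there were 4529 genes. RA and LA libraries did not overlap in 2135 of the called genes and in 41.6% of all tested genes. The largest difference lay on the right, at Bmp10, which stands at the top of the plot of all genes.

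**Figure D1:**
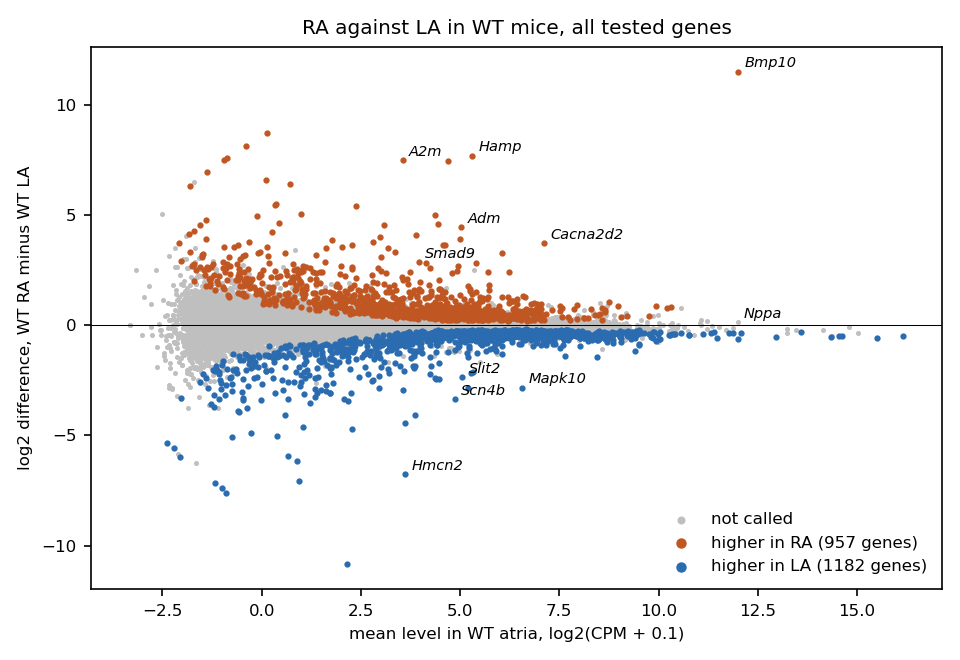
Log2 difference of RA minus LA in WT mice (vertical axis) against the mean level on a log2 axis for 18018 tested genes. Orange points are the 957 genes called higher in RA, blue points the 1182 called higher in LA and grey points the rest. Bmp10 stands at 11.50 and Hmcn2 at -6.75.

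The scaling and the pairing of libraries changed these counts. Scaling to library totals in place of TMM shifted the median log2 difference by 0.17, and of the 3441 calls made then 83.7% lay on the right, against 44.7% with TMM. These were 2880 genes higher in RA and 561 in LA of 18018 tested. List counts with library totals are to be read beside this shift of all genes. No called gene changed sign there, all 957 genes higher in RA stayed called, and 560 of the 1182 genes higher in LA did. LA and RA libraries of 1 animal can be paired by the animal IDs of the sample titles. With the animal as a block the calls were 3351 (18.6%; 9.55% higher in RA and 9.05% in LA) if the repeated column is animal 1 and 3901 (21.7%; 11.1 and 10.6%) if it is animal 2, and 1969 and 2041 of the 2139 calls stayed. An LA library without an RA partner adds nothing to the WT difference in these blocked fits. It is WT LA replicate 2 when the repeated column is animal 1, and WT LA replicate 1 when it is animal 2. Blocked WT values thus rest on 2 LA and 2 RA libraries, with WT LA replicate 3 among them. Without WT RA replicate 1 the count was 611 and without WT RA replicate 3 it was 1008, where the 1 RA library left has its spread taken from the remaining groups. 605 and 971 of the 2139 calls stayed. With WT LA replicate 3 left out 8.73% of tested genes were called, 3.58% higher in RA and 5.15% in LA. Leaving out WT LA replicate 1 gave 997 genes higher in RA and 1272 in LA of 17977 tested. Leaving out WT LA replicate 2 gave 722 and 930 of 17903. When either RA library was left out, calls over all genes fell in both directions. Counts of gene lists with the block, with library totals or without 1 library follow the lists below, with calls higher in RA first and calls higher in LA second. They are to be read beside the change over all genes under the same setting, so a lower list count alone does not single out that list. Blocked counts are in the order animal 1 and animal 2.

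The ligand gene of the right atrium marked the 2 sides in every library. Bmp10 (chr6:87428994-87437677, GRCm38), whose promoter is shown above, had 3.24, 3.87 and 0.972 CPM in LA and 7683 and 8827 CPM in RA (log2 11.50, SE 0.47, edgeR adjusted p = 2.25e-08). No library of one side came near the other. Per length of exon, Bmp10 ranked 15 of 18018 genes in RA and 13136 in LA. The gene was called under all 16 alternatives.

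**Figure D2:**
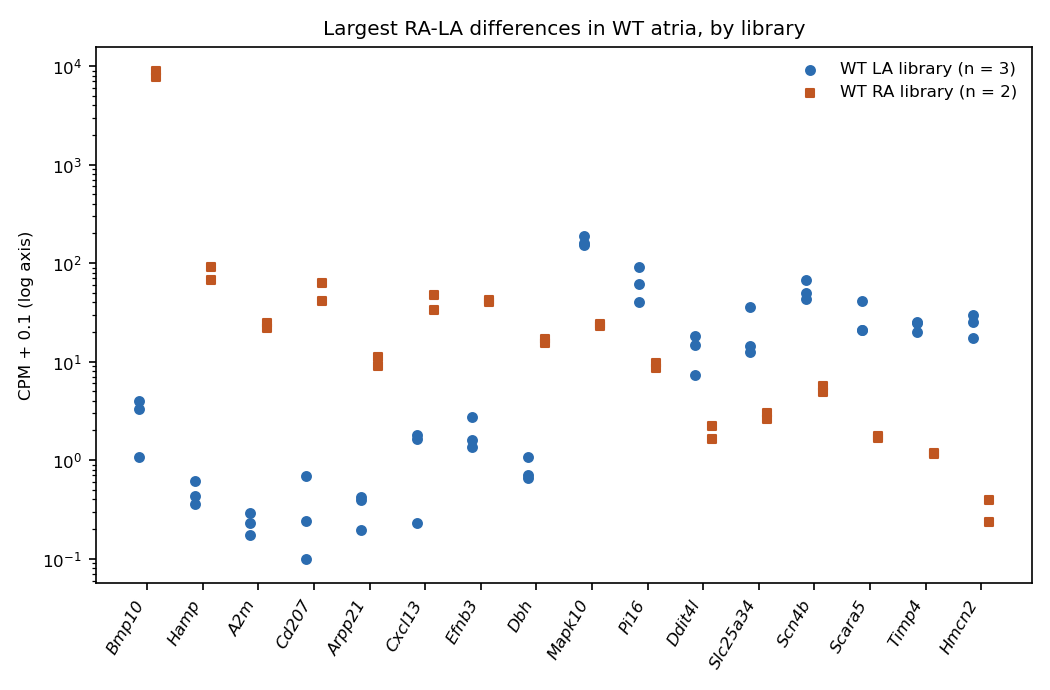
Levels of named genes with the largest differences in each direction, as CPM + 0.1 on a log axis, 1 point per library (blue circles for 3 LA libraries, orange squares for 2 RA libraries). Both RA libraries have Bmp10 at 7683 and 8827 CPM. The genes were chosen among those without overlap of LA and RA libraries, so the gap in each gene shown follows from the choice.

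Of 15 tested factors and markers of left-right and sinus node identity, 5 were higher in RA and 2 higher in LA, with a median log2 difference of 0.56 against 0.01 over all tested genes. There were 2 and 2 without WT RA replicate 1. Besides Bmp10, the 4 on the right were Tbx3, Shox2, Cpne5 and Cntn2. Tbx3, a repressor that keeps node myocytes from becoming working muscle, was at 6.81, 6.75 and 6.48 CPM in LA and 10.1 and 9.63 in RA (log2 0.56, SE 0.12, edgeR adjusted p = 0.00418). Shox2, a node factor, was at 0.516, 0.590 and 0.648 CPM in LA and 4.71 and 1.87 in RA (log2 2.50, SE 0.59, edgeR adjusted p = 0.0135). The 2 RA libraries thus differ from each other by more than the LA libraries do, and the call was lost without WT RA replicate 1 (0.242), without WT LA replicate 2 (0.0505) and with the block as animal 1 (0.0538). Cntn2, a conduction system marker, repeats this pattern at 1.31, 1.55 and 2.01 CPM in LA and 37.5 and 17.6 in RA (log2 4.11, SE 0.81, edgeR adjusted p = 0.00649). Its edgeR adjusted p without WT RA replicate 1 was 0.0719, and that of Tbx3 was 0.0716. Isl1 had 12 counts over the WT libraries and was not tested. Prrx1, a homeobox gene and 1 of the 2 higher in LA, had 70.3, 60.5 and 75.9 CPM against 38.1 and 48.6 in RA (log2 -0.67, SE 0.11, edgeR adjusted p = 0.000508).

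Other pacemaker genes did not pass the test. Hcn4, the main pacemaker channel of the node, was at 2.82, 1.51 and 2.98 CPM in LA and 5.64 and 4.93 in RA (log2 1.15, SE 0.37, edgeR adjusted p = 0.054). The libraries do not overlap, and with the animal as a block its edgeR adjusted p was under the threshold only with the repeated column as animal 2. Tbx18 (log2 0.42, edgeR adjusted p = 0.361) and Vsnl1 (log2 0.96, edgeR adjusted p = 0.118) had RA values of 18.2 and 17.4 CPM and of 2.42 and 1.32 CPM. A part of the Tbx18 exons, 20.6% of their bases, is shared with another annotated gene, and no source used here gives the strand setting of the counting, so that its counts are uncertain.

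Among 28 tested cardiac and atrial transcription factors, 7 were higher in RA and 1 in LA, with a median of 0.19. The block gave 8 and 4 as animal 1 and 7 and 4 as animal 2, library totals 14 and 1, and leaving out WT RA replicate 3 or WT LA replicate 2 gave 3 and 1 or 4 and 2. Hey1, a target of Notch signalling, was at 12.2, 11.6 and 8.10 CPM in LA and 36.6 and 30.6 in RA (log2 1.64, SE 0.16, edgeR adjusted p = 9.85e-06). Gata5, a factor of the endocardium, was at 3.61, 2.69 and 2.59 CPM in LA and 8.57 and 9.35 in RA (log2 1.59, SE 0.19, edgeR adjusted p = 2.99e-05). Tbx20 (log2 0.75, edgeR adjusted p = 0.00045) and Tbx5 (log2 0.34, edgeR adjusted p = 0.0123) were higher in RA by less, and Tbx5 lost its call without WT RA replicate 3 (0.235) and without WT LA replicate 2 (0.0536). The 1 factor higher in LA was Osr1, with 12.2, 9.52 and 6.16 CPM against 3.56 and 3.83 in RA (log2 -1.34, SE 0.21, edgeR adjusted p = 0.000397). Levels of Gata4, Gata6 and Nkx2-5, the core cardiac factors, differed by 0.18, 0.16 and 0.05 on the log2 scale and were not called.

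Ligand, receptor, SMAD and ID genes of BMP signalling were among the genes higher in RA. Of 44 tested BMP and TGF-beta ligands, receptors and targets, 14 were higher in RA and 1 in LA, beside 5.31 and 6.56% of all genes. The median was 0.18, and 29 members were not called. Among ligands, Bmp5 joined Bmp10, at 0.375, 0.516 and 0.648 CPM in LA and 2.63 and 3.33 in RA (log2 2.55, SE 0.40, edgeR adjusted p = 0.000487). Bmp2, Bmp4, Bmp6 and Bmp7 had log2 differences of 0.41, 0.14, 0.52 and -0.74 and were not called. Per length of exon, Bmp5 ranked 12766 in RA, so that it is weakly expressed there beside Bmp10.

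Receptor genes showed smaller differences. Acvr1, a type I BMP receptor, was at 30.9, 28.6 and 22.6 CPM in LA and 56.2 and 51.1 in RA (log2 0.96, SE 0.10, edgeR adjusted p = 4.7e-06). Eng, which encodes endoglin, the co-receptor for BMP10, was at 328, 309 and 201 CPM in LA and 627 and 527 in RA (log2 1.05, SE 0.22, edgeR adjusted p = 0.00754). Tgfbr3 (log2 0.44), Tgfbr1 (0.47) and the latent TGF-beta binding protein gene Ltbp4 (0.69) were also higher in RA. The edgeR adjusted p without WT RA replicate 1 was 0.103 for Eng, 0.141 for Tgfbr3, 0.26 for Tgfbr1 and 0.276 for Ltbp4. Tgfbr1 also lost its call without WT RA replicate 3 (0.0819), without WT LA replicate 2 (0.0627) and without WT LA replicate 3 (0.106), and Ltbp4 lost it without WT RA replicate 3 (0.0542) and without WT LA replicate 3 (0.0595). The receptor genes Acvrl1, which encodes ALK1, Bmpr2 and Bmpr1a had log2 differences of 0.03, -0.05 and 0.01 and were not called.

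The receptor-regulated SMADs split. Smad9 (chr3:54755582-54801257, GRCm38), with the GC-rich element in its window, was at 4.18, 3.03 and 3.95 CPM in LA and 27.5 and 26.6 in RA (log2 2.87, SE 0.14, edgeR adjusted p = 1.43e-09). Smad1 and Smad5, which carry the same signal, were at 18.8, 17.3 and 17.6 against 17.7 and 19.5 CPM and at 93.3, 87.0 and 83.2 against 96.8 and 102 CPM, and neither was called. The feedback inhibitors were both higher in RA. Smad6 was at 8.45, 11.7 and 6.22 CPM in LA and 52.9 and 40.3 in RA (log2 2.38, SE 0.29, edgeR adjusted p = 0.000209). Smad7 was at 15.1, 17.7 and 17.2 CPM in LA and 56.3 and 57.7 in RA (log2 1.77, SE 0.12, edgeR adjusted p = 4.46e-08).

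All 4 ID genes, inhibitors of helix-loop-helix factors and direct BMP targets, were higher in RA by similar amounts. Id1 was at 7.32, 9.19 and 7.71 CPM in LA and 31.6 and 25.8 in RA (log2 1.82, SE 0.24, edgeR adjusted p = 0.00024). Id2 was at 29.3, 26.7 and 13.9 CPM in LA and 91.9 and 72.4 in RA (log2 1.80, SE 0.38, edgeR adjusted p = 0.00988). Id3 was at 17.7, 19.7 and 16.9 CPM in LA and 62.1 and 52.2 in RA (log2 1.65, SE 0.21, edgeR adjusted p = 0.000215). In none of the 4 do LA and RA libraries overlap, as in 2135 of all 2139 called genes. Id4 was the weakest of them, at 0.892, 1.44 and 0.843 CPM in LA and 3.52 and 4.38 in RA (log2 1.85, SE 0.27, edgeR adjusted p = 0.000265). Id2 was not called without WT RA replicate 1 (0.102). The 1 member of the list higher in LA was Chrd, which encodes chordin, an extracellular BMP antagonist, at 6.81, 6.79 and 5.71 CPM in LA and 2.50 and 2.28 in RA (log2 -1.43, SE 0.31, edgeR adjusted p = 0.00552). Its edgeR adjusted p was 0.0669 and 0.0676 without WT RA replicate 1 or 3. The direction of Chrd, a secreted inhibitor, is opposite to that of the list's other called genes. Over the list, 9 members were called higher in RA without WT RA replicate 1 and 12 without WT RA replicate 3, with none in LA in both. The block gave 19 and 2, then 18 and 1.

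**Figure D3:**
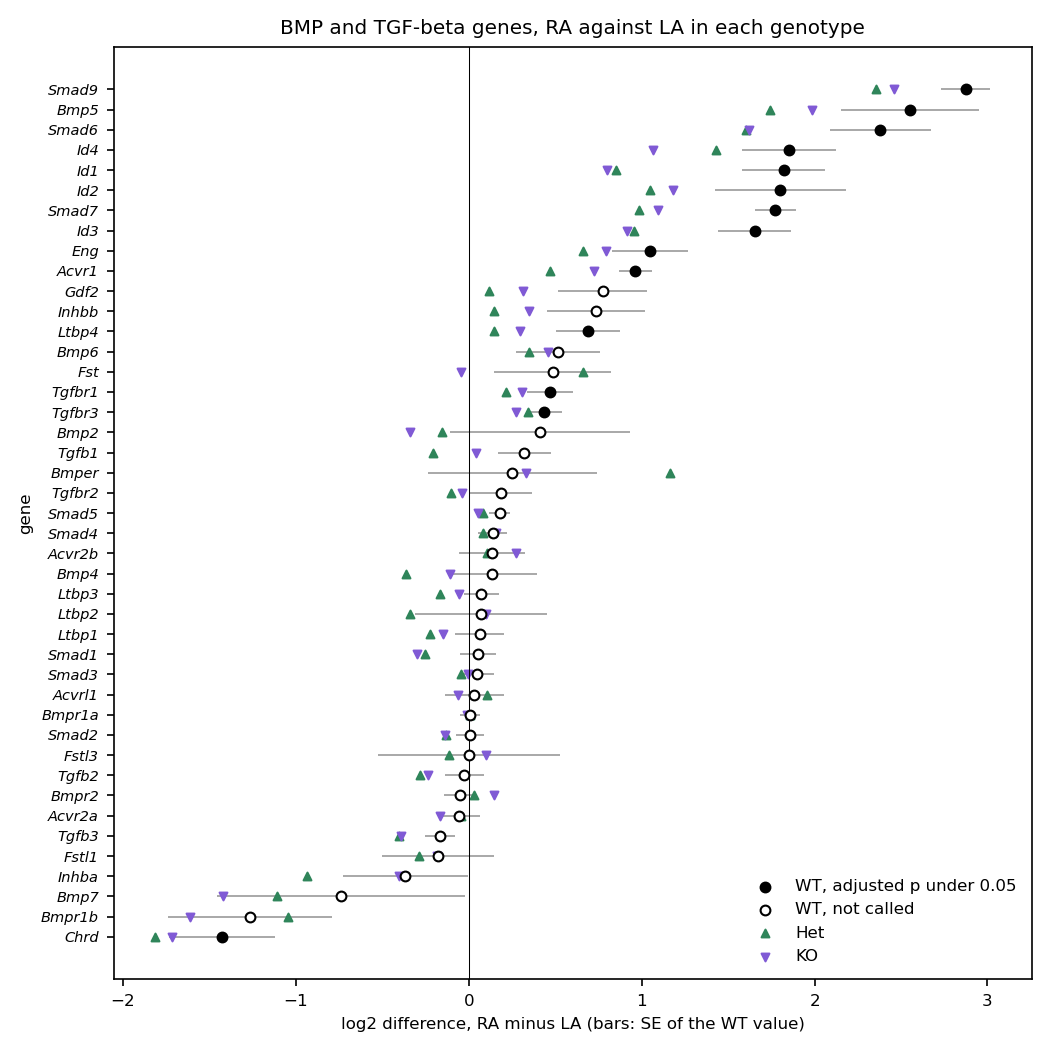
Log2 difference of RA minus LA for 43 tested BMP and TGF-beta genes, without Bmp10, which lies at 11.50. Black circles are WT (filled where called, open where not, bars for the SE), green triangles are Het and purple triangles KO animals. Smad9 lies highest among these genes at 2.87 and Chrd lowest among the called ones at -1.43.

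Iron regulation differed in its hormone more than in its carriers. Hamp (chr7:30942368-30944032, GRCm38) encodes hepcidin, the peptide that degrades the iron exporter ferroportin. It was at 0.516, 0.332 and 0.259 CPM in LA and 66.6 and 90.4 in RA (log2 7.69, SE 0.55, edgeR adjusted p = 3.69e-06). Per length of exon it ranked 123 in RA and 12082 in LA. Hamp2, its paralogue on the same chromosome, had no count in LA and 0.594 and 0.547 CPM in RA, at least 2.93-fold above the floor of 3 counts in an LA library (edgeR adjusted p = 0.00351). The windows above show how alike the 2 genes are, so that reads may be split between them, and 15.3% of the Hamp2 exon bases are shared with another annotated gene. Hamp2 counts are uncertain for both reasons. Slc40a1, which encodes ferroportin, was at 77.9, 83.4 and 70.3 CPM in LA and 49.0 and 42.7 in RA (log2 -0.75, SE 0.18, edgeR adjusted p = 0.014). Cp, which encodes the ferroxidase ceruloplasmin, was at 475, 348 and 374 CPM in LA and 270 and 223 in RA (log2 -0.69, SE 0.15, edgeR adjusted p = 0.00624). Hfe2, which encodes hemojuvelin, the BMP co-receptor of the hepcidin pathway, was lower in RA (log2 -0.26, edgeR adjusted p = 0.0356). Of 16 tested iron genes, 2 were higher in RA and 3 in LA, with a median of -0.14 that turned to 0.03 with library totals. The block gave 4 and 3, then 4 and 4, and library totals gave 2 and 1. No iron gene was called higher in LA without WT RA replicate 3: the edgeR adjusted p was 0.132 for Slc40a1, 0.102 for Cp and 0.15 for Hfe2. With WT RA replicate 1 left out it was 0.0742 for Slc40a1 and 0.213 for Hfe2, and Hfe2 was also lost without WT LA replicates 2 (0.0781) and 3 (0.112).

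Auxiliary subunits of voltage-gated channels differed between the atria in both directions. Cacna2d2 (chr9:107399612-107529343, GRCm38), which encodes the alpha2delta-2 subunit of calcium channels, was at 20.1, 19.4 and 19.3 CPM in LA and 236 and 279 in RA (log2 3.71, SE 0.17, edgeR adjusted p = 1.31e-08). Cacna2d1, the usual cardiac alpha2delta subunit, was lower in RA (log2 -0.35, edgeR adjusted p = 0.0319). Scn4b (chr9:45138395-45154152, GRCm38), a sodium channel beta subunit, was at 42.9, 67.3 and 49.2 CPM in LA and 4.79 and 5.52 in RA (log2 -3.37, SE 0.36, edgeR adjusted p = 5.45e-05). Of 16 tested sodium channel, pacemaker channel and connexin genes, none was higher in RA and 2 were higher in LA, Scn4b and Gjc1, with a median of -0.26. Gjc1, which encodes connexin 45, lost its call without WT RA replicate 1 (0.286), without WT RA replicate 3 (0.0968) and without WT LA replicate 3 (0.113). With the block the list had 0 and 2 calls in RA and 4 in LA each time. Leaving out WT RA replicate 1 or 3 gave 0 and 1, leaving out WT LA replicate 1 gave 1 and 2, and library totals gave 1 and 1. Gja5, the atrial connexin 40, passed only with the block among these (log2 -0.45, edgeR adjusted p = 0.28 without the block, 0.000601 and 6.07e-05 with it).

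Calcium handling genes moved in both directions, with 7 of 34 higher in RA and 9 higher in LA and a median of -0.04. On the right stood the channels of pacemaking: Cacna1d was at 20.1, 18.8 and 15 CPM in LA and 47.9 and 44.2 in RA (log2 1.35, SE 0.18, edgeR adjusted p = 0.000238), and Cacna1g, a T-type channel, at 10.5, 13.6 and 11.6 CPM and 19.9 and 20.0 (log2 0.74, SE 0.15, edgeR adjusted p = 0.00382). On the left stood genes of the sarcoplasmic store. Hrc, a luminal calcium-binding protein, was at 1316, 1159 and 1376 CPM in LA and 806 and 850 in RA (log2 -0.63, SE 0.08, edgeR adjusted p = 9.92e-05). Casq2, which encodes calsequestrin, was at 1181, 1224 and 1364 CPM in LA and 797 and 853 in RA (log2 -0.61, SE 0.10, edgeR adjusted p = 0.000491). Pln, which encodes phospholamban, was at 956, 757 and 1080 CPM in LA and 449 and 580 in RA (log2 -0.85, SE 0.17, edgeR adjusted p = 0.00462). Because 64.7% of the Pln exon bases are shared with other annotated genes, its counts are uncertain. Jph2 (log2 -0.48), Trdn (-0.41) and Ryr2 (-0.35), which build the release site, were also higher in LA. Without WT RA replicate 1 the edgeR adjusted p was 0.103 for Pln, 0.0922 for Jph2, 0.186 for Trdn, 0.187 for Ryr2 and 0.325 for Cacna2d1. Ryr2 also lost its call without WT RA replicate 3 (0.0882), as did Cacna2d1 (0.0647), which lost it too without WT LA replicates 1 (0.0503) and 3 (0.0911). The list had 3 calls in RA and 4 in LA without WT RA replicate 1, and 4 and 6 without WT RA replicate 3. Atp2a2, the store's calcium pump SERCA2a, was not called without the block (log2 -0.22, edgeR adjusted p = 0.137 without the block, 0.0105 and 0.016 with it).

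Potassium channel genes had 5 of 32 members higher in RA and 3 higher in LA, with a median of 0. The block gave 5 and 5 both times, library totals 8 and 2, and leaving out WT RA replicate 3 or WT LA replicate 1 gave 3 and 2. Kcnk2, the stretch-activated TREK-1 channel, was at 1.74, 2.07 and 1.04 CPM in LA and 0.0848 and 0.228 in RA (log2 -3.38, SE 0.54, edgeR adjusted p = 0.000563). Kcna1, a channel found in nerve as well, was at 1.92, 1.36 and 0.778 CPM in LA and 7.55 and 8.58 in RA (log2 2.53, SE 0.49, edgeR adjusted p = 0.00465). Kcnj3 and Kcnj5, which form the acetylcholine-activated channel of the atria, had log2 differences of 0.01 and 0.18 and were not called. Rgs6, which speeds the shut-off of that channel, was at 49.6, 48.8 and 56.8 CPM in LA and 112 and 127 in RA (log2 1.21, SE 0.12, edgeR adjusted p = 3.69e-06). Of 26 tested autonomic receptor and adenylyl cyclase genes with their regulators, 4 were higher in RA and 3 in LA. Only 1 and 1 were called without WT RA replicate 1, 3 and 1 without WT RA replicate 3, and 8 and 2 with library totals. Adora1, the adenosine receptor that slows the heart, was higher in RA (log2 0.61, edgeR adjusted p = 0.0112), but not without WT RA replicate 1 (0.158), and Chrm2, the cardiac muscarinic receptor, was not called (log2 -0.31, edgeR adjusted p = 0.121), though it passed in both blocked fits (0.000308 and 0.0117).

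Called genes of contraction and energy supply were nearly all higher in LA. Among 38 tested sarcomere and Z-disc genes none was higher in RA and 9 were higher in LA, with a median of -0.25. With the animal as a block 18 and 17 were higher in LA and 1 in RA each time. Tnnt2, cardiac troponin T, was at 9726, 7897 and 10612 CPM in LA and 6093 and 6735 in RA (log2 -0.55, SE 0.12, edgeR adjusted p = 0.00663). Actc1, cardiac actin, was at 4014, 5730 and 5132 CPM in LA and 3084 and 3390 in RA (log2 -0.62, SE 0.12, edgeR adjusted p = 0.00298). Tnni2 and Tnnt1, troponins of skeletal muscle type, had larger differences: Tnni2 was at 6.43, 3.76 and 5.83 CPM in LA and 1.02 and 1.28 in RA (log2 -2.21, SE 0.34, edgeR adjusted p = 0.000368), and Tnnt1 had a log2 difference of -1.15 (SE 0.18, edgeR adjusted p = 0.000559). Myoz2, a Z-disc protein, was at 858, 928 and 1066 CPM in LA and 464 and 540 in RA (log2 -0.92, SE 0.16, edgeR adjusted p = 0.00139). Myh6, the atrial myosin heavy chain, was at 28675, 26634 and 33161 CPM in LA and 27158 and 28694 in RA, with overlapping libraries. Leaving out WT RA replicate 1, Tnnt2 (0.124) and Actc1 (0.0738) were not called and the list had 4 calls, all higher in LA. With library totals 6 were higher in LA and 2 in RA. There were 1 and 11 without WT LA replicate 1 or 2 and 1 and 8 without WT LA replicate 3.

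Respiratory chain genes of the nucleus were higher in LA in most members. Of 80 tested, 62 were higher in LA and none in RA, with a median of -0.36 and a range of -0.61 to 0.01, and RA and LA libraries did not overlap in 72, beside 41.6% of all genes. Sdhb, a subunit of complex II, was at 384, 469 and 467 CPM in LA and 285 and 293 in RA (log2 -0.61, SE 0.08, edgeR adjusted p = 0.000142). Ndufa10, of complex I, was at 422, 485 and 474 CPM in LA and 321 and 331 in RA (log2 -0.50, SE 0.07, edgeR adjusted p = 0.000275). The number of calls changed with the libraries and the scale. There were 18 without WT RA replicate 1 (median -0.36), 36 without WT RA replicate 3 (median -0.39), 52 without WT LA replicate 3 (median -0.34) and 27 with library totals (median -0.19). With the block there were 62 and 73. No member was higher in RA in any of these. Of 13 proteins encoded in the mitochondrion, 5 were higher in LA and none in RA, with a median of -0.35. mt-Cytb was at 50767, 56368 and 59437 CPM in LA and 34076 and 39315 in RA (log2 -0.60, SE 0.12, edgeR adjusted p = 0.00342). Nuclear copies of mitochondrial genes exist, so that reads of the 2 may be mixed. Without WT RA replicate 1 none of the 13 was called, and the edgeR adjusted p of mt-Cytb was 0.0933. The block gave 0 and 7, then 1 and 7.

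Fatty acid genes followed, with 16 of 35 higher in LA, none in RA and a median of -0.49. Fabp3, the heart fatty acid binding protein, was at 514, 623 and 623 CPM in LA and 329 and 343 in RA (log2 -0.80, SE 0.12, edgeR adjusted p = 0.000288). Its exons share 19.6% of their bases with other annotated genes. Cd36, the fatty acid carrier of the membrane, was at 1153, 1319 and 1226 CPM in LA and 730 and 749 in RA (log2 -0.74, SE 0.15, edgeR adjusted p = 0.00453). The call of Cd36 was lost without WT RA replicate 1 (0.0702). 4 members were called without WT RA replicate 1, 7 without WT RA replicate 3 and 10 without WT LA replicate 2 or 3, all higher in LA. Library totals gave 2 and 8. With the block 22 and 26 were higher in LA and 2 in RA each time. Of 29 glycolysis and glucose genes, 9 were higher in LA, among them the muscle enolase Eno3 (log2 -0.76, edgeR adjusted p = 0.000797), and 2 in RA. Their median of -0.17 was 0.01 with library totals, which gave 6 and 4 calls. Calls were 0 and 3 without WT RA replicate 1. Leaving out WT RA replicate 3 gave 1 and 4, WT LA replicate 1 gave 1 and 11 and WT LA replicate 3 gave 2 and 5. The block gave 4 and 10, then 4 and 15. The transport and master regulator genes Ppargc1a, Ppara and Cpt1b had log2 differences of -0.22, -0.16 and -0.23 and were not called. Ckmt2, mitochondrial creatine kinase, was at 807, 1048 and 967 CPM in LA and 428 and 405 in RA (log2 -1.17, SE 0.12, edgeR adjusted p = 4.31e-06), the largest difference among 7 of 16 cardiomyocyte markers higher in LA.

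Called cardiomyocyte markers were likewise higher in LA. They share members with the sarcomere and calcium lists, among them Tnnt2, Actc1 and Ryr2, so they are no separate measure of muscle content. The 16 had summed levels of 96028, 92900 and 107872 CPM in LA and 82021 and 86873 CPM in RA, with a median log2 difference of -0.29, and none was called higher in RA. Those called higher in LA numbered 1 without WT RA replicate 1, 4 without WT RA replicate 3, 4 with library totals and 11 and 12 with the block. Their part in the differences of the sarcomere and energy genes was not tested. The plot of the gene lists shows the medians of these groups at the bottom and those of macrophage, nerve and left-right genes at the top.

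**Figure D4:**
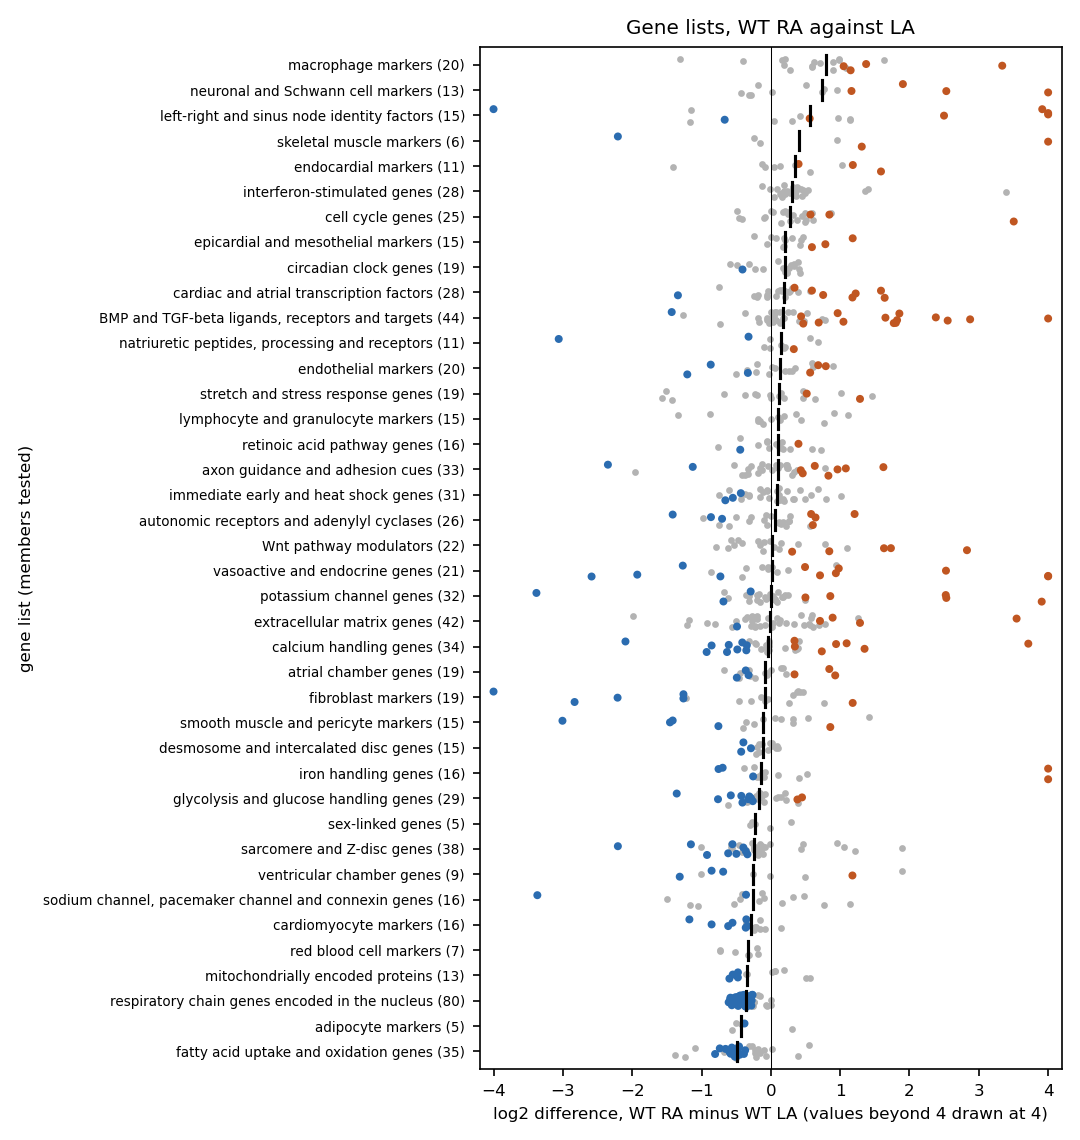
Log2 difference of RA minus LA in WT mice for the tested members of each gene list with 5 or more tested members, 1 point per gene (orange called higher in RA, blue called higher in LA, grey not called). Black ticks are list medians, from 0.80 for macrophage markers to -0.49 for fatty acid genes, and points beyond 4 are drawn at 4.

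The natriuretic peptide genes were not called. Nppa was at 3657, 4241 and 3735 CPM in LA and 3966 and 4586 in RA (log2 0.14, SE 0.15, edgeR adjusted p = 0.626), and Nppb at 140, 112 and 166 CPM and 120 and 198 (log2 0.19, SE 0.25, edgeR adjusted p = 0.711). The libraries of the 2 sides overlap in both genes, and 61.5% of the Nppa exon bases are shared with another annotated gene. Corin, which encodes the protease that activates the peptide, was at 701, 651 and 754 CPM in LA and 696 and 700 in RA. A difference stood at the other end of the peptide's life: Mme, which encodes neprilysin, the protease that degrades it, was at 8.12, 4.80 and 4.15 CPM in LA and 0.679 and 0.684 in RA (log2 -3.06, SE 0.37, edgeR adjusted p = 5.69e-05). Of 19 atrial chamber genes, 3 were higher in RA and 3 in LA. Dkk3, a secreted glycoprotein of the Dickkopf family, was at 819, 872 and 1019 CPM in LA and 1531 and 1711 in RA (log2 0.84, SE 0.13, edgeR adjusted p = 0.000508). Peg3, an imprinted gene, was at 175, 151 and 185 CPM in LA and 298 and 349 in RA (log2 0.93, SE 0.11, edgeR adjusted p = 4.83e-05). With the block the list had 3 higher in RA both times and 9 and 7 higher in LA. It had 3 and 1 without WT RA replicate 1 or WT LA replicate 3, and 4 and 1 with library totals. Of 9 ventricular chamber genes, 3 were higher in LA and 1 in RA. None of these ventricular genes was called without WT RA replicate 1, while 0 and 2 were without WT RA replicate 3 or WT LA replicate 2, and 2 and 3 without WT LA replicate 3.

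Vasoactive genes carried some of the largest differences. Adm, which encodes the vasodilator adrenomedullin, was at 4.22, 1.99 and 2.46 CPM in LA and 64.5 and 60.3 in RA (log2 4.44, SE 0.26, edgeR adjusted p = 1.15e-07). Its receptor partners Ramp2 and Ramp3 were higher in RA as well. Ramp2 was at 30.8, 34.1 and 23.9 CPM in LA and 51.2 and 46.1 in RA (log2 0.71, SE 0.17, edgeR adjusted p = 0.0143), and Ramp3 at 0, 0.332 and 0.130 CPM and 0.848 and 1.14 (log2 2.53, SE 0.56, edgeR adjusted p = 0.00661). Ramp1, which directs the same receptor to calcitonin gene-related peptide, was higher in LA (log2 -0.73, SE 0.19, edgeR adjusted p = 0.0201). The nitric oxide synthases divided: Nos1 was at 2.77, 2.43 and 2.40 CPM in LA and 0.339 and 0.502 in RA (log2 -2.59, SE 0.38, edgeR adjusted p = 0.000246) and Nos2 had a log2 difference of -1.93 (SE 0.28, edgeR adjusted p = 0.000248), while Nos3, the endothelial form, was higher in RA (log2 0.49, SE 0.14, edgeR adjusted p = 0.0317). Of 21 tested vasoactive and endocrine genes, 7 were higher in RA and 4 in LA, with 4 and 2 without WT RA replicate 1 and 3 and 2 without WT RA replicate 3. The calls of Ramp2 (0.153), Ramp1 (0.104) and Nos3 (0.289) were lost without WT RA replicate 1. With WT RA replicate 3 left out the edgeR adjusted p was 0.0533 for Ramp2, 0.0673 for Ramp3, 0.15 for Ramp1 and 0.0736 for Nos3. Ramp1 was also lost without WT LA replicate 3 (0.0739), and Nos3 without WT LA replicates 1 (0.0818) and 3 (0.107).

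Dbh, which encodes dopamine beta-hydroxylase, the enzyme that makes noradrenaline, was at 0.610, 0.553 and 0.972 CPM in LA and 15.5 and 16.7 in RA (log2 4.56, SE 0.30, edgeR adjusted p = 1.15e-07). Of 24 neuronal and Schwann cell markers 13 were tested, 4 were higher in RA and none in LA, and 5 of the 24 were at 0 in all WT libraries. Without WT RA replicate 1 or 3 they were 2 and 0, with library totals 8 and 0, and with the block 4 and 1, then 5 and 0. Th, the tyrosine hydroxylase gene that acts before Dbh, was not among the tested genes, nor was Npy. The other 3 were Kcna1, Cdh19 (log2 1.16, edgeR adjusted p = 0.00837) and Prph (log2 1.90, edgeR adjusted p = 0.0459). Summed over the list, LA libraries had 45.7, 37.0 and 31.1 CPM and RA libraries 64.4 and 67.5 CPM. These sums include Dbh and also Kcna1, which was at 1.92, 1.36 and 0.778 CPM in LA and 7.55 and 8.58 in RA. They therefore do not show a rise of the other members. Prph was not called without any one of WT RA replicate 1 (0.235), WT RA replicate 3 (0.135), WT LA replicate 2 (0.167) and WT LA replicate 3 (0.126), nor was Cdh19 without WT RA replicate 1 (0.0677) or 3 (0.0643).

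Guidance and Wnt genes differed between the sides in single members. Slit2, a repellent ligand for axons and migrating cells, was at 45.4, 72.9 and 48.2 CPM in LA and 9.84 and 12 in RA (log2 -2.35, SE 0.28, edgeR adjusted p = 0.000129). Unc5b, a netrin receptor, was at 10.3, 12.1 and 10.2 CPM in LA and 33 and 34.2 in RA (log2 1.62, SE 0.11, edgeR adjusted p = 7.54e-08), and Ntn1, which encodes its ligand netrin-1, at 82.4, 100 and 64.2 CPM and 166 and 155 (log2 0.96, SE 0.14, edgeR adjusted p = 0.000376). The ephrin ligand Efnb3 was at 1.27, 1.51 and 2.66 CPM in LA and 42.4 and 40.2 in RA (log2 4.57, SE 0.25, edgeR adjusted p = 5.58e-08). Efnb1 (log2 0.83) and the receptor Ephb4 (log2 0.63) were also higher in RA. Of 33 guidance genes, 7 were higher in RA and 2 in LA. They were 4 and 1 without WT RA replicate 1, 6 and 1 without WT LA replicate 1, 6 and 4 without WT LA replicate 2, and 8 and 4, then 10 and 2 with the block. Among 22 Wnt modulators, 5 were higher in RA and none in LA, and 4 of the 5 encode secreted proteins, Sfrp2, Sfrp5, Frzb and Dkk3. Sfrp5 was at 8.82, 2.66 and 21.3 CPM in LA and 76.6 and 69.8 in RA (log2 2.83, SE 0.53, edgeR adjusted p = 0.00535), and its LA libraries differ widely among themselves. With any one of WT LA replicate 3, WT RA replicate 1 and WT RA replicate 3 left out, 2 Wnt genes were called, both higher in RA. Leaving out WT LA replicate 1 gave 3 and 0 and WT LA replicate 2 gave 4 and 1, and the block gave 6 and 2, then 5 and 3. Frzb was lost without WT RA replicates 1 (0.197) and 3 (0.128) and WT LA replicates 1 (0.0938) and 3 (0.061), and Sfrp2 without WT RA replicate 1 (0.212) and WT LA replicates 2 (0.097) and 3 (0.0791).

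Stromal genes divided within a cell type. Of 19 fibroblast markers, 5 were higher in LA and 1 in RA, with a median of -0.09. Scara5 was at 40.9, 20.6 and 20.6 CPM in LA and 1.57 and 1.64 in RA (log2 -4.09, SE 0.38, edgeR adjusted p = 1.86e-05), and Pi16 at 61.2, 91.5 and 39.9 CPM and 9.67 and 8.44 (log2 -2.83, SE 0.31, edgeR adjusted p = 8.5e-05). Both mark a fibroblast state found around large vessels. Mfap4, a microfibril protein, was at 33, 40.9 and 19.3 CPM in LA and 6.92 and 6.62 in RA (log2 -2.21, SE 0.38, edgeR adjusted p = 0.00275). Pdgfra and Col1a1, the general markers, had log2 differences of 0.37 and -0.15 and were not called, and their LA libraries ran from 36.0 to 95.9 and from 33.5 to 169 CPM. Summed over the list, LA libraries had 3986, 4640 and 1928 CPM and RA libraries 4793 and 4199 CPM. Without WT LA replicate 3 the median was -0.41, with 6 higher in LA and 1 in RA. Calls were 0 and 3 without WT RA replicate 1, 1 and 3 without WT RA replicate 3 or WT LA replicate 2, and 3 and 4, then 4 and 4 with the block, where the medians were 0.38 and 0.10. Of 42 extracellular matrix genes, 4 were higher in RA and 1 in LA. Thbs4, a thrombospondin, was at 0.610, 0.848 and 0.324 CPM in LA and 7.08 and 7.71 in RA (log2 3.55, SE 0.40, edgeR adjusted p = 3.01e-05), and Fbln1 had a log2 difference of 0.89 (edgeR adjusted p = 0.0021). Without WT LA replicate 3, 4 matrix genes were higher in RA and 9 in LA, and with the block 11 and 10 were higher in RA and none in LA. Leaving out WT RA replicate 1 or 3 gave 2 and 0, WT LA replicate 1 gave 7 and 2, WT LA replicate 2 gave 5 and 0, and library totals gave 7 and 0.

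Called pericyte genes were mostly higher in LA and called endocardial genes in RA. Rgs5, a pericyte regulator of G proteins, was at 352, 256 and 258 CPM in LA and 110 and 106 in RA (log2 -1.42, SE 0.16, edgeR adjusted p = 4.55e-05), and Vtn, which encodes vitronectin, at 7.84, 4.69 and 3.37 CPM and 0.552 and 0.776 (log2 -3.01, SE 0.33, edgeR adjusted p = 1.51e-05). Of 15 smooth muscle and pericyte markers, 4 were higher in LA and 1, Abcc9, in RA. Leaving out WT RA replicate 1 gave 1 and 2, WT LA replicate 1 and library totals gave 2 and 4, and the block gave 1 and 4, then 2 and 5. Of 11 endocardial markers, 3 were higher in RA and none in LA, among them Tmem108, at 19.2, 23.9 and 19.9 CPM in LA and 49.3 and 46.4 in RA (log2 1.18, SE 0.12, edgeR adjusted p = 4.14e-06). The Tmem108 exons share 15.6% of their bases with another annotated gene. With the block 7 and 6 endocardial markers were called and with library totals 5, all higher in RA, and 2 and 1 were called without WT LA replicate 3. Endothelial markers divided 3 to 3 among 20. Kdr, a VEGF receptor, was at 133, 127 and 108 CPM in LA and 201 and 193 in RA (log2 0.68, SE 0.11, edgeR adjusted p = 0.000567), and Aqp1, a water channel, at 235, 194 and 222 CPM and 116 and 122 (log2 -0.87, SE 0.15, edgeR adjusted p = 0.00191). Pecam1, a general marker, was not called (log2 0.27). With the block 9 endothelial markers were higher in RA each time and 5 and 4 in LA. There were 1 and 1 without WT RA replicate 1, 1 and 2 without WT LA replicate 2 or 3, and 6 and 2 with library totals. The summed endocardial level was 1162, 1168 and 671 CPM in LA and 1659 and 1406 CPM in RA, and the median of the list was 0.35 with WT LA replicate 3 and 0.24 without it.

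Macrophage markers had the highest median of the lists, 0.80, but few calls. Of 20, 4 were higher in RA and none in LA. Ccr2, a monocyte receptor, was at 3.05, 1.96 and 0.194 CPM in LA and 25.4 and 11.9 in RA (log2 3.34, SE 0.76, edgeR adjusted p = 0.0153), and Cd14 at 3.14, 2.80 and 1.43 CPM and 5.77 and 4.65 (log2 1.05, SE 0.22, edgeR adjusted p = 0.00406). Adgre1, Csf1r, C1qa and Cd163, found across heart macrophages, had log2 differences of 0.99, 0.99, 0.62 and 0.72, and were not called. Csf1r was at 46.1, 49.5 and 14 CPM in LA and 87.5 and 59.1 in RA. The median was 0.35 without WT LA replicate 3, with 4 higher in RA and 2 in LA, and without WT RA replicate 1 none was called. The edgeR adjusted p of Ccr2 was 0.158 without WT RA replicate 1 and 0.0503 without WT LA replicate 2. With the block 10 and 9 macrophage markers were higher in RA, and 2 were without WT RA replicate 3 or WT LA replicate 2. Summed over the list, LA libraries had 493, 521 and 143 CPM and RA libraries 758 and 520 CPM, so that WT RA replicate 3 lies within the range of LA. An antigen presentation and a resident macrophage gene outside the list, chosen after their values were seen, were higher in RA. H2-Ab1 was at 9.34, 4.69 and 1.62 CPM in LA and 44.2 and 20.9 in RA (log2 2.60, edgeR adjusted p = 0.0402). Vsig4 was at 3.43, 6.12 and 0.194 CPM and 50.4 and 37.7 (log2 3.63, SE 0.55, edgeR adjusted p = 0.00139). Unlike in the list sums, WT RA replicate 3 lay above every LA library in both genes. Cd207, which encodes langerin, went further, at 0.141, 0.590 and 0 CPM in LA and 62.1 and 41.4 in RA (log2 7.44, SE 0.64, edgeR adjusted p = 1.86e-05), and so did the chemokine gene Cxcl13, at 1.55, 1.70 and 0.130 CPM and 46.8 and 33.2 (log2 5.01, SE 0.39, edgeR adjusted p = 3.99e-06). None of 15 lymphocyte and granulocyte markers and none of 7 red blood cell markers was called. In the first of these lists 1 was higher in LA without WT LA replicate 3 and 1 higher in RA with the block as animal 1.

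The remaining large differences came from genes of varied function. A2m, a protease inhibitor of plasma, was at 0.188, 0.0738 and 0.130 CPM in LA and 24.5 and 22 in RA (log2 7.48, SE 0.38, edgeR adjusted p = 1.62e-08), and Arpp21, a phosphoprotein regulated by cyclic AMP, at 0.0939, 0.295 and 0.324 CPM and 8.91 and 11.1 (log2 5.39, SE 0.35, edgeR adjusted p = 3.64e-08). On the left, Hmcn2, a hemicentin of the matrix, was at 29.6, 25.3 and 17.4 CPM against 0.297 and 0.137 in RA (log2 -6.75, SE 0.41, edgeR adjusted p = 7.54e-08). Mapk10, which encodes the stress kinase JNK3, was at 159, 153 and 187 CPM in LA and 24.1 and 22.7 in RA (log2 -2.83, SE 0.12, edgeR adjusted p = 4.67e-10). Timp4, a metalloproteinase inhibitor, was at 19.9, 24.3 and 25.2 CPM in LA and 1.06 and 1.09 in RA (log2 -4.42, SE 0.60, edgeR adjusted p = 0.000487). Ddit4l, an inhibitor of mTOR signalling, was at 14.6, 7.27 and 18.2 CPM in LA and 1.53 and 2.10 in RA (log2 -2.87, SE 0.48, edgeR adjusted p = 0.00171). The mitochondrial carrier gene Slc25a34 was at 12.4, 35.3 and 14.3 CPM in LA and 2.50 and 2.87 in RA (log2 -2.96, SE 0.88, edgeR adjusted p = 0.049), a call that was lost without WT RA replicate 1 (0.29), without WT RA replicate 3 (0.205), without WT LA replicate 2 (0.127) and without WT LA replicate 3 (0.067). Except in Slc25a34, these genes were called under all 16 alternatives.

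Other lists held few differences. Interferon-stimulated genes had none of 28 called, although 26 had a positive difference and the median was 0.30. With the block 3 and 8 were higher in RA. Cell cycle genes had 3 of 25 higher in RA, with Cenpf, a kinetochore protein, at 1.27, 2.07 and 0.843 CPM in LA and 18.4 and 14.9 in RA (log2 3.50, SE 0.66, edgeR adjusted p = 0.00507). There was 1 cell cycle call without WT RA replicate 1, 6 with library totals and 9, then 4 with the block, all higher in RA. Clock genes had 1 of 19 called, and immediate early and heat shock genes 3 of 31, all higher in LA, among them the mitochondrial chaperones Hspd1 (log2 -0.43, edgeR adjusted p = 0.00284) and Hspe1 (log2 -0.55, edgeR adjusted p = 0.00159). The clock list had no call without WT RA replicate 1, WT RA replicate 3 or WT LA replicate 3 or with library totals, and 2 and 1, then 3 and 1 with the block. The immediate early and heat shock list had 2 and 6, then 1 and 4 with the block and 2 and 3 with library totals. Retinoic acid genes had 1 of 16 higher on each side. None was called without WT RA replicate 1, 0 and 2 were without WT LA replicate 1 or 3, 0 and 1 without WT LA replicate 2, 2 and 0 with library totals and 2 and 1, then 0 and 3 with the block. Of 15 epicardial and mesothelial markers, 3 were higher in RA and none in LA, and of 15 desmosome and intercalated disc genes 3 were higher in LA and none in RA. The desmosome list had no call with library totals, without WT RA replicate 1 or without WT LA replicate 3, 1 call in LA without WT RA replicate 3, and 0 and 5, then 1 and 5 with the block. No epicardial marker was called without WT RA replicate 1, and the block gave 2 and 0, then 5 and 0. Of 4 tested cartilage and bone markers, Cnmd, which encodes chondromodulin, was higher in RA, at 0.0939, 0.148 and 0 CPM in LA and 2.97 and 1.92 in RA (log2 4.65, SE 0.54, edgeR adjusted p = 2.75e-05). Of 19 stretch and stress genes, 2 were higher in RA, Piezo1, which shares 24.6% of its exon bases with another annotated gene, and Postn. Neither was called without WT RA replicate 1 (0.223 and 0.149) or 3 (0.119 and 0.149). The stretch and stress list had 1 and 1 without WT LA replicate 3 and 4 and 0, then 3 and 1 with the block. Of 5 tested adipocyte markers 1 was higher in LA, Cox8b, which lost its call without WT RA replicates 1 (0.182) and 3 (0.136) and WT LA replicate 2 (0.105). With the block 2 and 3 adipocyte markers were higher in LA, and with library totals none was called. Of 6 skeletal muscle markers 2 were higher in RA and 1 in LA, with 0 and 1 without WT RA replicate 1, 1 and 1 without WT RA replicate 3, WT LA replicate 2 or WT LA replicate 3, and 3 and 2 with the block as animal 2. Of the cartilage and bone markers 3 and 2 were higher in RA with the block.

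The Het and KO mice give the same comparison in other animals, with 3 LA and 3 RA libraries each and none shared with WT. There 1386 genes (7.69%) and 1504 genes (8.35%) were called between the atria. Of the 2139 WT calls, 2103 (98.3%) had the same direction in Het and 2108 (98.6%) in KO, against 72.0 and 71.8% of all tested genes. The genes called in WT and Het numbered 955, which is 44.6% of the WT calls and 68.9% of the Het calls. Those called in WT and KO numbered 1006, which is 47.0% of the WT calls and 66.9% of the KO calls. None was called in opposite directions, and 790 were called in all 3 genotypes. Bmp10 (log2 11.31 in Het and 11.89 in KO), Hamp (6.5 and 6.61), Smad9 (2.36 and 2.46) and Cd207 (5.40 and 6.79) were called in each. Hcn4, not called in WT, was called higher in RA in Het (log2 1.32, edgeR adjusted p = 0.0313) and KO (log2 1.5, edgeR adjusted p = 0.0103). Shox2 was not called in either (log2 1.19 and 1.03).

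**Figure D5:**
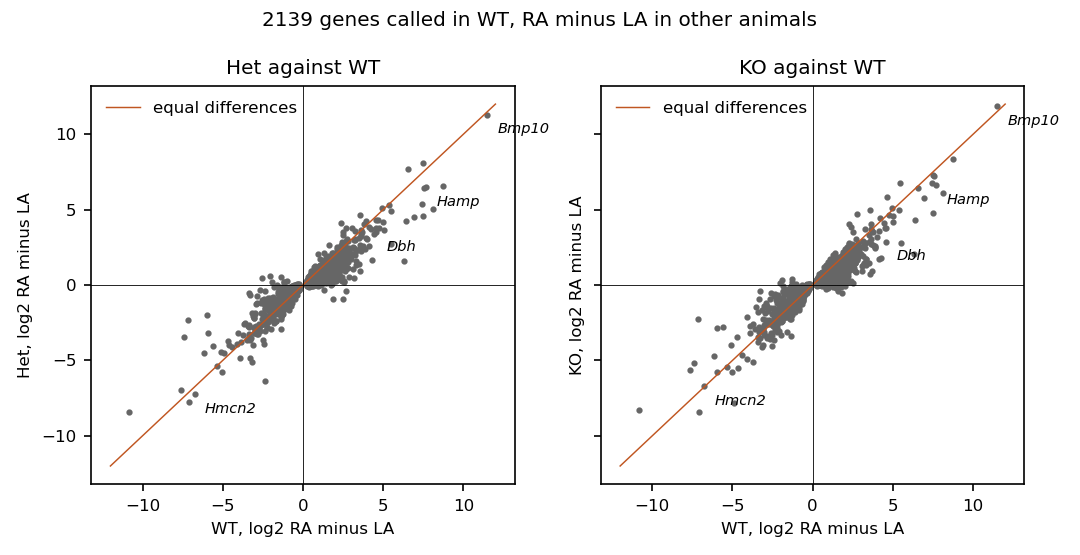
Log2 difference of RA minus LA in Het (left) and KO (right) animals against that in WT for the 2139 genes called in WT, 1 point per gene, with a line of equal differences. Points lie in the lower left and upper right of each panel for 98.3 and 98.6% of genes. Bmp10 lies at 11.50 in WT and at 11.31 and 11.89 in Het and KO.

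Over the WT calls the median difference, taken in the WT direction, was 0.582 in WT, 0.36 in Het and 0.377 in KO on the log2 scale, and the differences correlated with r = 0.928 and 0.934 across these genes, which are not independent replicates. The genes were selected on their WT values, so the smaller medians elsewhere are no test of a smaller difference. The test of the difference itself, an interaction of atrium with genotype, called no gene for Het or KO in edgeR, with 786 and 711 genes at an unadjusted p under 0.05. DESeq2 called 1 gene in each, Slit2 (adjusted p 7.58e-06 for Het and 0.000383 for KO), whose edgeR adjusted p was 0.82 and 0.995. With the animal as a block the calls numbered 21 and 154 for Het (0.117 and 0.855%) and 8 and 98 for KO (0.0444 and 0.544%), most of them with a smaller or more left-sided difference than in WT: 19 and 122 for Het (0.105 and 0.677% of genes, against 0.0111 and 0.178% in the opposite direction) and 8 and 78 for KO (0.0444 and 0.433%, against 0 and 0.111%).

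BMP genes were among these blocked calls. Id3, higher in RA by 1.65 in WT, had a difference 0.77 and 0.69 smaller in Het (edgeR adjusted p = 0.00831 and 0.00516) and 0.80 and 0.72 smaller in KO (0.0164 and 0.00483) on the log2 scale. For Smad7 the difference was smaller by 0.83 and 0.71 in Het (edgeR adjusted p = 0.00676 and 0.00516) and by 0.73 and 0.61 in KO (0.0217 and 0.0164). For Smad6 it passed with the repeated column as animal 1 (edgeR adjusted p = 0.0139 in Het and 0.0287 in KO) but not as animal 2 (0.086 and 0.1). Without the block the edgeR adjusted p of these interactions was 0.82 or more. All WT libraries have a male and all Het libraries a female pattern of Xist and Ddx3y, so that genotype and sex cannot be told apart there, and KO libraries have both patterns. WT RA has 2 libraries, 1 of them of unknown animal, in each of these tests. The blocked tests leave 2 WT LA libraries in the WT difference, WT LA replicate 3 and that of the animal given the repeated column.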

How the data were processed

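Messenger RNA of left and right atria was sequenced (KAPA mRNA HyperPrep, Illumina NovaSeq, per the labels' protocols). The authors deposited 1 table of whole-number gene counts, used here without change. Tools named by the submitters' processing notes are STAR 2.7.9a and DESeq2 1.30.1, and the build is mm10. Annotation release, counting rule and strand setting were not given in the sources used here. Of 56691 gene IDs, 52073 found a symbol in GENCODE M21 (GRCm38) once version suffixes were dropped, and 35 of these matched with their suffix. IDs without a symbol held 1.71 to 2.63% of counts in WT libraries. All 18 columns were used, as 17 distinct libraries.

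Under R 4.3.3, genes passing filterByExpr (minimum count 10) were scaled by TMM and tested in edgeR 4.0.16 with robust quasi-likelihood fits, 1 mean for each of the genotype and atrium groups and 11 residual degrees of freedom. SE is the log2 difference divided by the root of F. CPM values carry TMM scaling, and values per length divide them by exon length. Replicates are separate animals by the IDs in the titles. LA and RA libraries of the same ID deviated together from their group means in Het (correlations of 0.248 to 0.363) and KO (0.213 to 0.411). The animal therefore served as a block beside the main design, with the repeated RA column taken as animal 1 or 2. In WT the correlations were 0.158 and 0.214. With 2 distinct RA libraries their deviations are mirror images, so the WT values do not test the pairing. WT LA replicate 2 also correlated with the repeated column, at 0.12. The fit was run on simulated counts with the same groups, with 200 changed genes per run in WT RA and no animal effect. It recovered 35.4% of 1.5-fold, 58.9% of 2-fold and 83% of 4-fold changes, with 5.67 false calls per run. The simulation does not cover the shared deviations of LA and RA libraries. Libraries hold 18000583 to 33483085 counts, which sets the precision of low genes.

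The members, the 43 gene lists and the tests were chosen with earlier results of these data known, and the lists come from general knowledge. Named genes are 13 fixed left-right and atrial genes, the 8 largest called differences in each direction among genes with an official symbol, a mean of at least 5 CPM and no overlap between RA and LA libraries, and the 2 called members with the smallest p of each list with 2 or more calls. Other members stand as examples, and some genes the rule names are not reported here. Lists were described by counts and medians, with no list test. Alternatives were DESeq2 1.42.0, limma-voom with limma 3.58.1, RLE scaling, library totals, no filter on low counts, the block, both identical columns, each WT library left out and the WT libraries alone. The WT libraries alone with the repeated column as animal 2, and list counts under each setting, were added after seeing the data.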

Additional observations from a re-analysis of the deposited data

How the results depend on the processing

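The 2139 calls between WT atria became 3441 with library totals only, 3351 and 3901 with the replicate block (repeated column as animal 1 and 2), 3560 with both identical columns as libraries and 1193 with the WT libraries alone, where 3 residual degrees of freedom are left and 1100 of the calls stayed. Leaving out 1 WT library gave 611 (without WT RA replicate 1) to 2269 (without WT LA replicate 1). DESeq2 gave 2352, limma-voom 1876, RLE scaling 2145 and no filter on low counts 2744. For the genotype interactions, 0 calls in Het and in KO became 1 and 1 with DESeq2, 163 and 140 with all genes kept, 21 and 8 with the replicate block as animal 1 and 154 and 98 as animal 2; leaving out 1 WT library gave 0 in each case. The cause of these changes was not tested. 10 of 43 list medians turned from negative to positive with library totals: iron handling (0.03), desmosome (0.05), glycolysis (0.01), smooth muscle and pericyte (0.07), atrial chamber (0.1), calcium handling (0.13), fibroblast (0.08), extracellular matrix (0.15), potassium channel (0.17) and lung epithelial genes (0.13). Of 81 named genes tested, 75 were called, 50 of them in all 16 alternatives, and none reversed. Without WT RA replicate 1, 53 were called. RA has 2 libraries, so genes without a call may still differ.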

Other observations

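Hormone and growth factor genes outside the lists, chosen after their values were seen, also separated the WT atria. Lepr, which encodes the leptin receptor, was at 1.17, 0.922 and 0.713 CPM in LA and 14.4 and 11.3 in RA (log2 3.75, SE 0.22, edgeR adjusted p = 1.44e-08), and was called in Het (log2 2.62) and KO (log2 2.65) as well. Igfbp3, which encodes a binding protein of insulin-like growth factors, was at 12.8, 10.5 and 14.1 CPM in LA and 127 and 112 in RA (log2 3.27, SE 0.33, edgeR adjusted p = 6.87e-05). Ptgds, which encodes a prostaglandin D synthase, was at 1.5, 2.4 and 0.843 CPM in LA and 11.4 and 17 in RA (log2 3.09, SE 0.29, edgeR adjusted p = 4.79e-06). In each of the 3 genes all RA libraries lay above all LA libraries, and 2135 of all 2139 called genes had no overlap either. Both Igfbp3 (log2 2.99 in Het and 2.80 in KO) and Ptgds (2.05 and 2.55) were called in the other genotypes.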
